A study of Caenorhabditis elegans with 2 samples.

Results

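Two-strand promoter regions are sites of FLT-1 binding that lie in the promoters of genes on both DNA strands at once. They were chosen by position from a conservative peak list over both replicates of a chromatin immunoprecipitation and sequencing (ChIP-seq) experiment in embryos of the nematode Caenorhabditis elegans. Overlapping nuclear peaks were merged into regions, and the strongest peak of a region set its summit. A region was kept when its summit lay between the limits 1000 bp before and 200 bp after the starts of at least 1 plus-strand and at least 1 minus-strand protein-coding gene, and over 200 bp from any tRNA gene. The rule kept 304 of the 2520 nuclear regions (12.1%). A further 688 regions lay in promoters of 1 strand only, 1254 lay outside promoters, and 274 lay within 200 bp of a tRNA gene, of which 6 would otherwise have been two-strand regions.

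The strain, RW12255, carries at flt-1 the fusion flt-1::TY1::EGFP::3xFLAG, and the gene is now annotated as baz-2. Midembryonic worms with an age label of 1 hour, staged by egg bleaching, were sonicated to fragments of 200 to 800 bp, and an anti-GFP antibody precipitated the fusion. There was 1 group with 2 biological replicates, no second genotype or condition, and no control peak list was used here. Whole embryos were taken, so each value is a sum over all cell types of the embryo, and binding in few cells cannot be told apart from weaker binding in many. With 1 group and 2 replicates no test between samples could be made, and the intervals given are 95% intervals that cover counting error over regions, genes or stretches only. The number of reads behind the peaks is unknown.

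FLT-1 belongs to the BAZ2 family, large chromatin proteins with a bromodomain and a PHD finger, modules that in other proteins bind modified histone tails. BAZ2 proteins of mammals are partners of ISWI-type nucleosome remodellers. Where genes lie head to head on opposite strands, 1 stretch of DNA is the promoter of both, and such pairs are common among housekeeping genes in compact genomes. In C. elegans many transcripts lose their original 5′ end through trans-splicing of a leader, so the annotated start of a gene is often downstream of the place where transcription begins.

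The sequences under the summits of the 6 strongest regions off the first chromosome are shown because they are the DNA at the highest signals; the base composition over all members, given further on, is an average that single windows need not show. Each reaches 100 bp to either side of the summit and is the plus strand of ce11 (WBcel235), 5′ to 3′, so the gene named second reads to the right and the gene named first reads to the left on the other strand. Capitals mark matches on either strand to the motifs that are spelled out with their counts further on, except at F44E5.4/F44E5.5, where they mark TTCNNGAA, the core of a heat shock element.
ecps-1/atx-2: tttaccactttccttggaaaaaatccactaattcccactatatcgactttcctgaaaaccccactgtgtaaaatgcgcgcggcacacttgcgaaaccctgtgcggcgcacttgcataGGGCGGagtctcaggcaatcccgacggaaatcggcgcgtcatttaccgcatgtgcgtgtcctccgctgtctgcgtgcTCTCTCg
mlcd-1/idhg-1: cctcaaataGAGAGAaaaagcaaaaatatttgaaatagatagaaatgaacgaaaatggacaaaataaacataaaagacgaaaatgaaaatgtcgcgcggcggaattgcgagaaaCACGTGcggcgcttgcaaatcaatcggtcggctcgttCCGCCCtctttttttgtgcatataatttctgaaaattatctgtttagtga
K01G5.10/tasp-1: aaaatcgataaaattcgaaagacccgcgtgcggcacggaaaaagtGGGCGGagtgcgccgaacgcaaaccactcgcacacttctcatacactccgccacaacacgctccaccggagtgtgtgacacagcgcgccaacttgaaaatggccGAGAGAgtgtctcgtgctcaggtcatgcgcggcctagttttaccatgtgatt
F44E5.4/F44E5.5: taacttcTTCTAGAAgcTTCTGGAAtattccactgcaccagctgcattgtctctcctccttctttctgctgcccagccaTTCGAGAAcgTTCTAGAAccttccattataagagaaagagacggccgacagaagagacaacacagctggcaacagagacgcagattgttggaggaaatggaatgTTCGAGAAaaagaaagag
chst-1/C41C4.9: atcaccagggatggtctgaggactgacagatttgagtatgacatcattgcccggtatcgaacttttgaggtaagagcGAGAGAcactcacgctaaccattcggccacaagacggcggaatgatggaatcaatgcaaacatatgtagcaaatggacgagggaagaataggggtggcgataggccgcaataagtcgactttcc
rpl-15/K11H12.8: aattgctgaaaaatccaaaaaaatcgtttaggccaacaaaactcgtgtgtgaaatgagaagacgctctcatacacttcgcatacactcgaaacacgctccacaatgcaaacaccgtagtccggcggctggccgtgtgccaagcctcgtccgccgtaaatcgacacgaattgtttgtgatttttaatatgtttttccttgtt
The windows lie at chrIII:10461223-10461423, chrIII:4568631-4568831, chrIII:10759147-10759347, chrII:11759352-11759552, chrII:8107221-8107421 and chrIV:654830-655030 in that order. CCGCCC or its complement is present in the first 3. At F44E5.4/F44E5.5 there were 5 matches to TTCNNGAA, and this motif was chosen after the gene pair had been seen. The rpl-15/K11H12.8 window holds none of the motifs searched.

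The strongest two-strand region lay between ecps-1, named for the ECM29 proteasome scaffold, and atx-2, the ataxin-2 RNA-binding protein, at chrIII:10461192-10461457. Its peak signal, the value the authors' peak caller gave the peak, was 470 in replicate 1 and 314 in replicate 2, and 780 in the pooled replicates. The summit lay 66 bp upstream of the atx-2 start and 772 bp upstream of the ecps-1 start. Over all 304 regions the pooled median was 116, against medians of 68.5 in replicate 1 and 50.6 in replicate 2.

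The second region, at chrIII:4568635-4568844, lay between mlcd-1, malonyl-CoA decarboxylase, and idhg-1, the gamma subunit of NAD-dependent isocitrate dehydrogenase. Its signal was 324 in replicate 1 and 261 in replicate 2, with the summit 66 bp from idhg-1 and 601 bp from mlcd-1. The third, at chrIII:10759128-10759358, lay 60 bp from tasp-1, the threonine aspartase taspase, and 725 bp from K01G5.10, with 353 in replicate 1 and 231 in replicate 2. In each of the 3 strongest regions the summit was thus within 100 bp of the plus-strand gene and over 600 bp from the minus-strand gene.

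The fourth region, at chrII:11759305-11759667, lay between F44E5.4 and F44E5.5, a head-to-head pair of inducible Hsp70 chaperone genes. Its signal was 262 and 190 in replicates 1 and 2, and the summit lay 141 bp from F44E5.4 and 210 bp from F44E5.5. The 2 genes are near-identical copies, and the treatment of reads with several placements is unknown here, so the height of this region is uncertain. The fifth, at chrII:8107200-8107443, lay between chst-1, a carbohydrate sulfotransferase gene, and C41C4.9, with 242 and 198.6 in the replicates. Its summit was 51 bp from the snoRNA gene C41C4.11, whose part in the signal was not tested.

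The sixth region, at chrIV:654839-655023, stood at the ribosomal protein gene rpl-15 with 221 and 197 in replicates 1 and 2, and its summit lay 354 bp from rpl-15 and 460 bp from K11H12.8. Next came the histone pair his-67/his-68 with 254 and 161, and E04F6.6/pcrg-1 with 245 and 158. Replicate 1 was the higher at each of these regions. It was higher at 245 of the 300 members with a value in both replicates and at 573 of 672 single-strand regions, an offset that both kinds of region share.

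The rest of the 20 strongest included genes of several functions. Signal at ears-2, a mitochondrial glutamyl-tRNA synthetase gene paired with uncp-18, was 234.7 and 148 in replicates 1 and 2. At nrde-2, a nuclear RNA interference factor, paired with atad-3, a mitochondrial AAA ATPase, it was 245 and 139. At prp-19, a spliceosome factor, paired with K10D2.5 and emb-1, it was 196 and 121. All 20 overlapped a peak in the own thresholded list of each replicate.

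The others in the 20 were rnf-121/C16C10.4, B0495.9/sre-1, rpl-20/Y17G9B.5, gei-6/krr-1, nmad-1/hach-1, spe-48/Y51F10.11, rps-19/hsr-9, dad-1/tre-1 and F56G4.6/wbp-4, with 154.7 to 235.3 in replicate 1 and 125.7 to 156.8 in replicate 2. Among them krr-1 encodes a factor of small ribosomal subunit assembly, hach-1 an enzyme of valine breakdown, dad-1 a subunit of the oligosaccharyltransferase and tre-1 a trehalase. The summit at B0495.9/sre-1 lay 60 bp from B0495.9 and 934 bp from sre-1, a chemoreceptor gene. The chemoreceptor gene was the far partner in this pair.

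**Figure D1:**
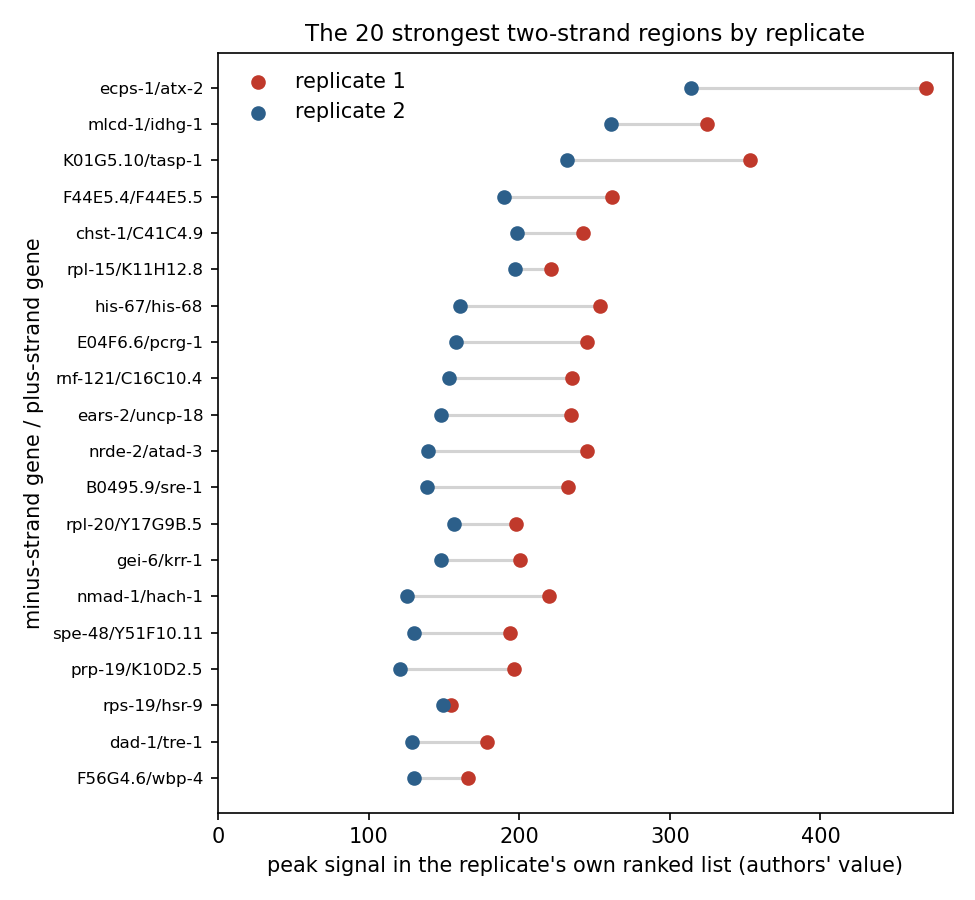
Peak signal of the 20 strongest two-strand regions in the own ranked list of replicate 1 (red) and replicate 2 (blue), on a linear axis of the authors' peak signal. Each row is 1 region named by its minus-strand and plus-strand gene, grey lines join the 2 replicates, and replicate 1 is the higher value in every row.

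The tagged gene itself was a member. The region at chrIII:7656544-7656839 lay 27 bp from the start of ZK783.7 and 660 bp from the start of baz-2. Its signal was 37.0 in replicate 1 and 42.7 in replicate 2, with 86.0 pooled, which placed it 256 of 304 by the mean of the log2 replicate values. It overlapped the own thresholded list of neither replicate.

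Taken over all members, signal was somewhat higher in two-strand regions than in single-strand promoter regions. The pooled median was 116 (interquartile range 88.7 to 162) against 99.4 in single-strand regions and 87.4 outside promoters. In replicate 1 the medians were 68.5, 59.0 and 51.4 in the same order, and in replicate 2 they were 50.6, 42.0 and 38.0. The ratio of two-strand to single-strand medians was 1.17 pooled, 1.16 in replicate 1 and 1.20 in replicate 2, so the order was the same in both replicates while the interquartile ranges overlapped widely. Among regions at an IDR of at most 0.0001 the ratio turned to 0.908. IDR, the irreproducible discovery rate, is the authors' measure of how well the ranks of a peak match between replicates, and their list ends at 0.01.

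Members were found again in the single replicates more often than other regions outside the tRNA margin. Of the 304, 194 (63.8%) overlapped the own thresholded list of replicate 1, against 51.6% of single-strand regions and 39.8% outside promoters. In replicate 2 it was 158 members (52.0%) against 41.1% and 26.4%. Both own lists held 141 members (46.4%, interval 40.9 to 52.0), against 32.7% of single-strand regions, 19.9% outside promoters and 27.4% of all 2246 regions outside the tRNA margin. Neither list held 93 members (30.6%), against 40.0% of single-strand regions and 53.7% of regions outside promoters. These 93 members entered only the list over both replicates.

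Recovery followed signal closely. Split in 3 by pooled signal, 99 of the 102 strongest members were in both own lists, against 38 of 101 in the middle and 4 of 101 in the weakest. At an IDR of at most 0.0001 there were 57 members (18.8%), 12.1% of single-strand regions and 7.74% of regions outside promoters. A replicate value was missing at 1 member in replicate 1 and at 3 members in replicate 2. F54D5.9/dnj-13 holds 2 neighbouring members with pooled signals of 203 and 12.7, and both were given the same replicate values, 117 and 85.8, because 1 peak in each replicate's list overlaps both. The replicate values therefore cannot be assigned to either member alone. At F40G9.14/F40G9.6 the pooled 25.5 was under the replicate values of 55.1 and 26.4.

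Two-strand promoter sequence is short, and regions were dense in it. It covered 2.09 Mb, 9.72% of all promoter sequence outside the tRNA margin, and held 30.6% (27.9 to 33.6) of the 992 promoter regions. Summit density was 145.7 per Mb (129.8 to 163.0), against 35.5 per Mb (32.9 to 38.3) in single-strand promoter sequence and 15.97 per Mb (15.1 to 16.9) elsewhere. The ratio of the first 2 densities was 4.10, and it was above 2 on each chromosome, from 2.41 on X to 6.08 on IV. By chromosome there were 71 members on I, 42 on II, 69 on III, 56 on IV, 52 on V and 14 on X. Chromosome V held 17.1% of members against 26.4% of two-strand sequence, and III held 22.7% against 15.5%. Other regions shared this: single-strand density was 20.1 per Mb on V and 48.1 per Mb on III. Outside promoters it was 11.9 per Mb on V and 20.5 per Mb on III.

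The excess was greatest close to gene starts. From 100 to under 200 bp upstream of the nearest start, two-strand sequence held 106 regions at 364 per Mb (298 to 440), and single-strand sequence 84.1 per Mb (70.5 to 99.6). Within the first 100 bp the densities were 275 and 43.9 per Mb, a ratio of 6.27. The ratio then fell with distance, to 3.01 from 200 to under 300 bp and 1.94 from 300 to under 500 bp. From 500 bp on two-strand sequence held only 6 regions, and the ratios of 0.856 and 1.12 there had intervals of density that overlapped. At the single-strand densities of the same distance bins two-strand sequence would hold 85.9 regions, and the 304 found were 3.54 times that number.

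**Figure D2:**
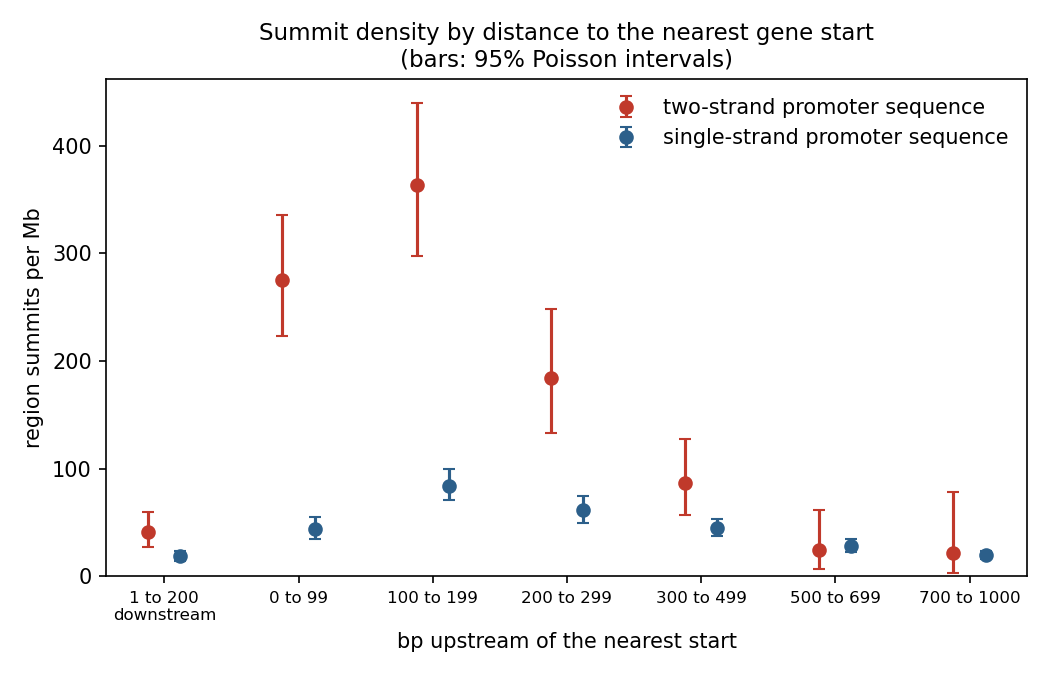
Region summits per Mb of two-strand (red) and single-strand (blue) promoter sequence, by bp upstream of the nearest start, with 95% Poisson intervals as bars. Red lies above blue in every bin under 500 bp, with a peak of 364 per Mb from 100 to under 200 bp, and the intervals overlap from 500 bp on.

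Within the shared promoters the summit mostly lay between the 2 starts. It was between the nearest plus-strand and minus-strand starts in 276 members (90.8%, 87.0 to 93.6), whereas 68.1% of two-strand sequence lies between such starts. The nearer start was at a median of 134.5 bp (interquartile range 65 to 197) and the farther at 350 bp (231.75 to 528.5). The nearer start was within 200 bp in 231 members. It was the plus-strand start in 165 members and the minus-strand start in 138. With the space between the starts cut into 3 equal parts, the summit stood in the middle one in 120 of the 276 (43.5%). Even placement would give 1 in 3, so the summits did not crowd toward the starts relative to the spacing.

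**Figure D3:**
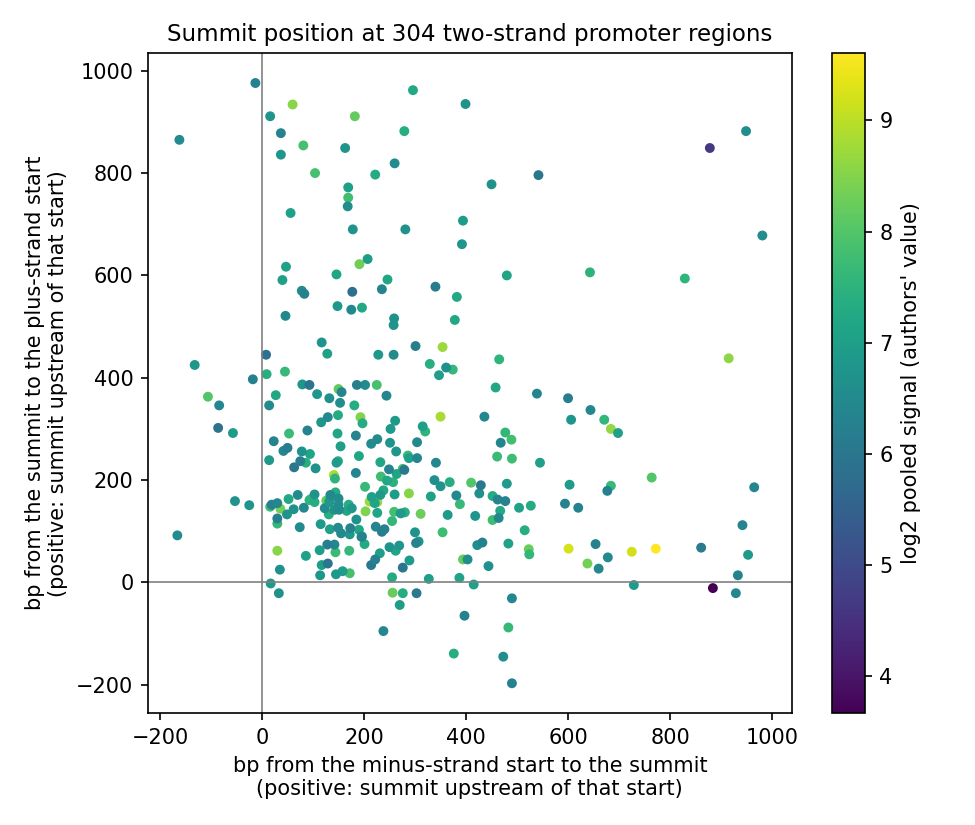
Distance from the summit to the plus-strand start against the distance to the minus-strand start for the 304 members, both in bp, coloured by the log2 of the pooled signal. Points in the upper right field, 276 of 304, have the summit upstream of both starts, and most lie within 200 bp of at least 1 start.

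The starts of a pair were a median of 477.5 bp apart (interquartile range 307.5 to 742), from -74 bp, where the genes overlap at their starts, to 1831 bp. Of the members 23 had starts under 200 bp apart, 136 had 200 to under 500 bp, 123 had 500 to under 1000 bp and 21 had 1000 bp or more. Pooled signal hardly moved with spacing, with medians of 110, 118, 119 and 109 in these bins. The share of stretches that were bound did move. A stretch is an unbroken run of two-strand promoter sequence, and 297 of 2775 held a summit (10.7%, 9.61 to 11.9), 7 of them more than 1, against 3.53% of 19116 single-strand stretches. By spacing the share was 9.68% under 200 bp, 20.2% at 200 to under 500 bp, 14.3% at 500 to under 1000 bp and 1.83% at 1000 bp or more. Density over the same bins was 156, 256, 137 and 37.3 per Mb, highest again at 200 to under 500 bp and lowest at 1000 bp or more, while the other 2 bins changed order. A summit must lie within 1000 bp upstream of both starts. With starts over 1000 bp apart, the rule thus leaves out the bases nearest to each start. The part of this limit in the low values of the widest bin was not tested.

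The closest head-to-head members were F32D8.14/F32D8.5 and F25H9.6/F25H9.7, and their windows are printed to show how close 2 starts can lie under 1 summit. Capitals mark the first 3 bases of each gene as they read on the plus strand, the minus-strand gene on the left, at chrV:10894721-10894921 and chrV:13468278-13468478.
F32D8.14/F32D8.5: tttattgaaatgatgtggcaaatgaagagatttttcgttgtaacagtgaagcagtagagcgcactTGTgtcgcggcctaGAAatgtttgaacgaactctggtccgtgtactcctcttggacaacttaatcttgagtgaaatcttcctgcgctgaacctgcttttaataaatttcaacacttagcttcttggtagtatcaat
F25H9.6/F25H9.7: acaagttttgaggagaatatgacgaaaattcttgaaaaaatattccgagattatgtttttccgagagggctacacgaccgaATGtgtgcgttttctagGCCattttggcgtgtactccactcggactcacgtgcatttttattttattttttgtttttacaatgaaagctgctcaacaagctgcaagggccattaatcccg
The starts are 12 and 15 bp apart, and each summit falls at the middle base of its window. Signal at F32D8.14/F32D8.5 was 80.4 in replicate 1 and 44.4 in replicate 2. At F25H9.6/F25H9.7 it was 41.3 and 76.5, with replicate 2 the higher.

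At F42A10.5/abcf-3 the 2 starts cross by 74 bp, and the signal was 38.9 and 39.4 in replicates 1 and 2. The widest pairs were egrh-2/lep-2 at 1831 bp, F40G9.14/F40G9.6 at 1727 bp and mif-4/ipla-6 at 1659 bp. Their replicate 1 values were 70.0, 55.1 and 51.9, and their replicate 2 values 35.3, 26.4 and 38.6. The mif-4/ipla-6 summit was also the one nearest to the outer limit of the rule, 981 bp from its farther start, followed by R04E5.9/cnnm-2 at 976 bp and C02F5.10/knl-1 at 965 bp. Just beyond the limit lay nep-26/mdt-22 at 1001 bp, emb-5/acy-1 at 1005 bp and T05A7.6/clec-140 at 1016 bp, with pooled signals of 159, 89.2 and 84.0.

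No member lay close to the tRNA limit. The member nearest to a tRNA gene was mdf-2/nduv-3 at 1275 bp, with Y38E10A.33/cox-10 at 1446 bp and pqn-21/cye-1 at 1574 bp next. The 6 left out by this limit lay at most 7 bp from a tRNA gene. Among these, gcy-33/cpr-9 had 357 in replicate 1 and 247 in replicate 2, which is within the range of the 3 strongest members. Other small RNA genes were rare at members: a snoRNA, snRNA or miRNA gene lay within 200 bp of the summit at 7 (2.30%), against 3.92% of single-strand regions and 6.62% outside promoters.

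The 304 members held the starts of 617 protein-coding genes, 423 of them with a name beyond the sequence name. Of the 5654 genes with two-strand promoter sequence these are 10.9%, and over all 19973 protein-coding genes 6.53% had a region of either promoter kind. At 283 members there were 2 starts, and 21 had at least 3. The member with the most, 4, was Y62E10A.20/Y62E10A.23, where mdt-9 of the Mediator complex and lsm-3, a core protein of the U6 snRNP, also start.

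Ribosomal protein and translation factor genes were more often at members than genes overall. The same held for single-strand regions, so the higher share was not particular to two-strand promoters. Among genes without two-strand promoter sequence, single-strand regions held 14 of 28 cytosolic ribosomal protein genes (50%). They held 4 of 18 translation factor genes (22.2%), against 4.14% over all such genes. Of 53 cytosolic ribosomal protein genes with two-strand promoter sequence, 26 were at a member (49.1%, 36.1 to 62.1), against the 10.9% over all genes. For translation factors it was 10 of 23 (43.5%), with iff-2, an eIF5A gene, at 129 and 102 in replicates 1 and 2, eef-1A.1, the elongation factor 1 alpha, at 102 and 98.95, and eef-2 at 87.8 and 74.1. The eef-1A.1 summit lay 15 bp from the miRNA gene cel-mir-5549, whose part in the signal was not tested. That summit was farther from eef-1A.1 (388 bp) than from rfc-4 (153 bp), while iff-2 (81 bp) and eef-2 (10 bp) were the nearer genes. Mitochondrial ribosomal protein genes had 7 of 30 (23.3%, 11.8 to 40.9), led by mrpl-18 with 78.2 and 78.8. There mrpl-18 lay 237 bp from the summit and C14B9.8 149 bp. Of tRNA synthetase genes there were 2 of 15 (13.3%, 3.74 to 37.9), ears-2 and mars-1, close to the share over all genes. At the 25 ribosomal protein regions the summit was nearer to the partner than to the ribosomal protein gene in most: the listed gene was nearer at 10, and the median distances were 286 bp to the ribosomal protein gene and 174 bp to the partner.

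Histone genes had 26 of 67 (38.8%, 28.0 to 50.8) at 16 members, and at 14 of the 16 both genes of the pair were histone genes. After his-67/his-68, the strongest were his-17/his-18 with 197 in replicate 1 and 91.9 in replicate 2, and his-60/his-59 with 169 and 84.0. The his-17/his-18 summit lay 20 bp inside his-18, and the his-60/his-59 summit 106 bp inside his-60. Replication-dependent histone genes of the worm are near-identical copies in clusters, so the split of reads among these pairs is uncertain.

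Chromatin genes had 15 of 43 (34.9%). Among them were set-16, an MLL-type histone methyltransferase (100 and 84.2), and mrg-1, a chromodomain protein of the MRG15 family (94.8 and 86.6). A further one was jmjd-1.2, a histone demethylase (109 and 72.7). In each of these regions the partner was nearer to the summit. The distances were 203 bp to set-16 and 143 bp to drr-2, and 255 bp to mrg-1 and 120 bp to spcs-2. They were 416 bp to jmjd-1.2 and 374 bp to F29B9.11. Splicing genes had 14 of 38 (36.8%), with prp-19 first and snr-1, a core snRNP protein, at 144 and 83.7. The partner was nearer there too. K10D2.5 lay at 37 bp against 638 bp for prp-19, and snx-13 at 225 bp against 386 bp for snr-1. For RNA polymerase and Mediator genes it was 6 of 24, with mdt-26 at 124 and 83.0 and mdt-19 at 81.3 and 80.4. The summit was nearer to mdt-26 (88 bp) than to ift-43 (483 bp), but farther from mdt-19 (797 bp) than from apb-1 (222 bp). Nuclear pore and transport genes had 6 of 27 (22.2%, 10.6 to 40.8), an interval that includes the 10.9% over all genes. Among them ima-1, an importin alpha, had 139 and 78.1, with the summit 291 bp from ima-1 and 53 bp from dvc-1. A few more chromatin genes were named after their values were seen. These were lin-35, the worm Rb protein, lin-53, an RbAp46/48 homologue, and lin-54, a DREAM complex subunit, each at a member in both own lists. The summit lay 180 bp from lin-35 and 238 bp from vps-51, and 232 bp from lin-53 and 235 bp from nra-2. It was farther from lin-54 (366 bp) than from rpl-12 (27 bp).

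Chaperone genes had 16 of 44 (36.4%), with the mitochondrial chaperonin hsp-60 at 203 in replicate 1 and 104 in replicate 2. The summit there lay 622 bp from hsp-60 and 191 bp from its partner Y22D7AL.10. Over the chaperone regions the listed gene was nearer to the summit at 5 of 17, which include both neighbouring members at F54D5.9/dnj-13. In other lists the listed gene was nearer at 7 of 10 translation factor regions and 9 of 16 chromatin regions. For mitochondrial ribosomal proteins it was nearer at 4 of 7. These counts are small, and a difference between lists was not tested. Respiratory chain genes had 11 of 44, and the listed gene was nearer at 3 of 11. They were led by ndua-2 with 154 and 121 and atp-1, an ATP synthase subunit, with 127 and 98.3. The summit was farther from ndua-2 (378 bp) than from dnj-29 (150 bp), and nearer to atp-1 (18 bp) than to mcrs-1 (172 bp). Mitochondrial import genes had 1 of 6 (16.7%, 3.01 to 56.4), an interval that includes the 10.9% over all genes. This was tim-1, with 63.0 and 62.6, and its summit lay within the snRNA gene sls-2.8, at 0 bp, whose part in the signal was not tested. The same summit lay 364 bp from tim-1 and 132 bp from Y75B8A.23.

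Cell cycle genes had 16 of 56 (28.6%), including sas-5, a centriole assembly protein, at 189 and 114.9 and czw-1, a kinetochore protein, at 120 and 75.4. The summit lay 65 bp from sas-5 and 523 bp from piit-1, and 320 bp from czw-1 and 295 bp from F20D12.12. DNA replication genes had 6 of 26 (23.1%, 11.0 to 42.1), among them rfc-4, a clamp loader subunit that shares its region with eef-1A.1. Vesicle traffic genes had 16 of 74 (21.6%), led by the region between W03C9.5 and mex-1, a maternal RNA-binding protein, with 175 and 116. The listed gene there is rab-7, a late endosome GTPase, which starts behind W03C9.5, the nearest gene at 182 bp. Proteasome genes had 3 of 24 (12.5%, 4.34 to 31.0), close to the share over all genes. Single-strand regions were also frequent at several of these lists, among genes without two-strand promoter sequence. Their shares were 41.7% for respiratory chain, 26.7% for histone, 26.1% for splicing, 22.1% for chromatin and 21.3% for chaperone genes. Cell cycle genes had 13.2%, vesicle traffic genes 11.5% and proteasome genes 0, against 4.14% over all such genes. The higher shares were thus not particular to two-strand promoters.

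The 6 lists of gene families that are large or tissue-specific in the worm had few genes at members. Chemoreceptors had 5 of 297 (1.68%, 0.721 to 3.88) and C-type lectins 0 of 81, for which the interval reached 4.53%. F-box and MATH-BATH genes had 7 of 132 (5.30%), collagens 2 of 43 (4.65%), nuclear hormone receptors 2 of 46 (4.35%) and homeobox genes 1 of 11 (9.09%). The collagen col-38 shares its region with rpl-5, and the chemoreceptor sri-5 shares its region with rsr-1, a splicing-related gene. The intervals of collagens, nuclear hormone receptors and homeobox genes include the 10.9% over all genes. Among genes without two-strand promoter sequence, single-strand regions held 0.494% of chemoreceptors, 0 of C-type lectins and 1.35% of F-box and MATH-BATH genes. They held 0.758% of collagens, 2.69% of nuclear hormone receptors and 5% of homeobox genes, against 4.14% over all such genes.

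**Figure D4:**
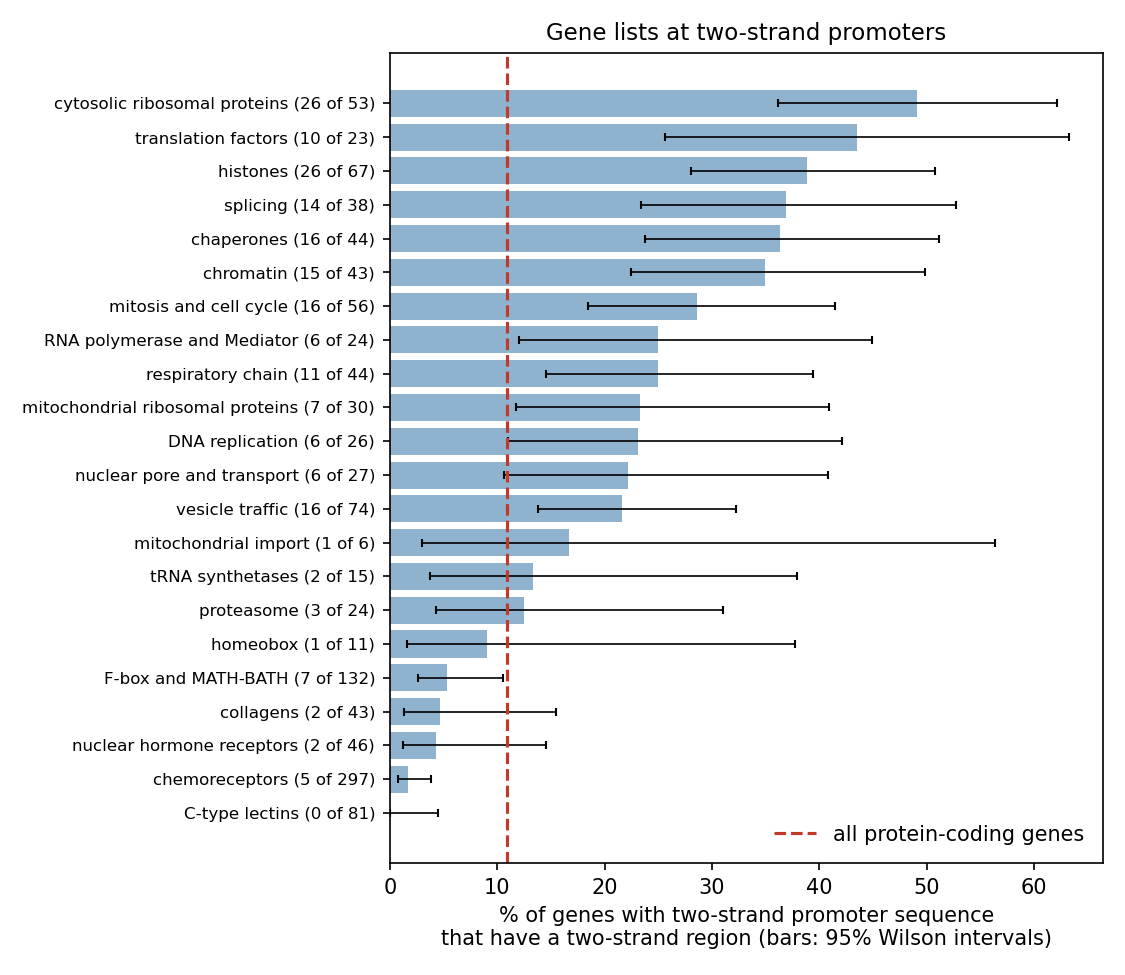
Percent of the genes of each list with two-strand promoter sequence that have a two-strand region, with 95% Wilson intervals, and the dashed line at 10.9% for all protein-coding genes. Cytosolic ribosomal proteins are highest at 49.1%, and chemoreceptors (1.68%) and C-type lectins (0) are lowest.

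The same lists were also counted by stretch. A gene of the 16 lists of widely used functions stood at 50.5% (44.8 to 56.1) of the two-strand stretches with a region and at 14.97% of those without. A gene of the 6 other lists stood at 5.39% and 19.2%. Of the 521 stretches with a gene of the first kind 28.8% held a summit, against 6.52% of the rest. Stretches with a region were also shorter in spacing, with a median of 476 bp against 769.5 bp without one, and the part of spacing in the difference between lists was not tested. By signal, 56.9% of the 102 strongest members, 44.6% of the middle 101 and 48.5% of the weakest 101 had a gene of the 16 lists, with overlapping intervals.

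The DNA under the summits was richer in G and C than other two-strand promoters. The median GC content within 100 bp of the summit was 41.8% (interquartile range 37.8 to 47.3) at members, 45.8% at single-strand regions, 47.3% at regions outside promoters and 33.3% in windows at the middle of two-strand stretches without a region. The whole nuclear genome has 35.4%. At the midpoint of the stretches that hold a region, wherever the summit was, GC content was 36.3%.

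The rise in GC was narrow. Averaged over the 304 members in steps of 25 bp, it was 53.0% at 13 bp to the left of the summit and 52.6% at 12 bp to the right, and it had fallen to 31.8% and 31.7% at 113 and 112 bp. On the plus strand, T rose to 40.0% at 87 bp on the side of the plus-strand gene, and A to 39.6% at 113 bp on the side of the minus-strand gene. Read along each gene's own strand, T was thus the base that rose on either side of the summit. The nearer start was within 100 bp in 118 members, so on that side these flanks can lie at or past the start. At single-strand regions oriented the same way, the T-rich flank stood on the gene's side, with 36.8% at 112 bp. Runs of 8 T on the sense strand were found toward the plus-strand gene at 21 members and toward the minus-strand gene at 13, against 5 and 3 on the antisense strand.

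**Figure D5:**
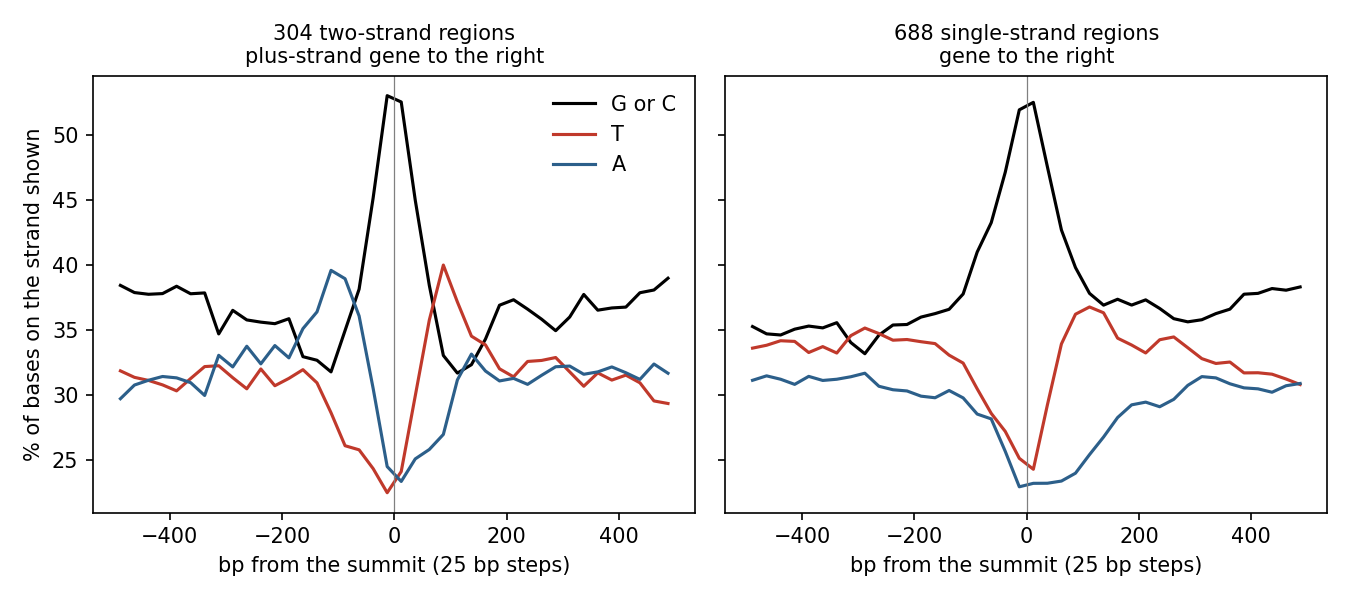
Percent of G or C (black), T (red) and A (blue) in 25 bp steps around the summit, at 304 two-strand regions with the plus-strand gene to the right and at 688 single-strand regions with the gene to the right. The two-strand panel has a central GC peak of 53.0% with an A-rich flank on the left and a T-rich flank on the right.

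Of the motifs searched on both strands, CCGCCC stood out at members: 20.1% of the windows held it (15.9 to 24.9), against 12.4% at single-strand regions, 10.6% outside promoters and 3.71% in two-strand stretches without a region. GAGAGA was at 27.6% of members, 35.0% of single-strand regions and 11.6% of stretches without a region. CGTCTC was at 17.4%, 23.0% and 6.13% in the same order. TATAAA was less frequent at members (13.5%) than in stretches without a region (27.2%), as were TGATAA (6.58% against 20.4%) and TTTTTTTT (12.2% against 23.7%). CCAAT was at 29.3% and 34.1%, CACGTG at 3.29% and 3.71%, and TTCCCGC at 4.28% and 2.30%. TTCNNGAA was at 12.2% of members and 12.2% of stretches without a region and 7.85% of single-strand regions. Windows at members were centred on the summit, and those of stretches without a region on the midpoint. At the midpoint of stretches with a region, CCGCCC was at 14.5%, GAGAGA at 20.2% and CGTCTC at 9.09%. There TATAAA was at 18.2%, TGATAA at 13.5% and TTTTTTTT at 17.2%. The part of window placement and of GC content in the differences was not tested.

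Among all words of 6 bases, counted with their reverse complements, the largest difference between members and stretches without a region was for GAGCGC, at 24.7% of members against 5.25%, with 15.99% at single-strand regions. CGCGCC followed at 21.7% against 3.87%, with 15.4% at single-strand regions. GCGCAC was at 23.0% against 5.25%, with 19.3% at single-strand regions. These words were ranked on the same windows, so their shares are a description. The part of GC content in them was not tested.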

How the data were processed

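ChIP-seq of FLT-1 in C. elegans embryos was available as peak lists in ce11 for 2 biological replicates. The authors deposited a peak signal, of unstated scaling, and an IDR score that is at least 830 in thresholded lists. Ranked lists as deposited also carry the global IDR on a −log10 scale, where the 2633 conservative peaks start at 2.00. For aligner and peak caller: not given in the sources used here. Depth is unknown. Per the file headers deposited beside the lists, thresholded lists derive from alignments.

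Gene starts were taken from Ensembl release 115 on WBcel235, and sequences from the RefSeq copy of WBcel235, which is ce11. Replicate signal is the highest signal in the replicate's own ranked list that overlaps the region's strongest peak by at least 1 bp. The own thresholded lists held 1543 and 1142 peaks. In the ranked list over both replicates 2 per-sample columns name no sample and were not used. Shares have 95% Wilson intervals and densities exact Poisson intervals. The tools were matplotlib 3.10.9, SciPy 1.17.1, Python 3.11.15, pandas 2.3.3 and NumPy 2.4.6, and the classification was tested on simulated data.

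The members and the 22 gene lists, built from gene names, were chosen with earlier results of these data known. Named regions are the 20 strongest by mean log2 replicate signal, up to 3 per gene list, the 3 shortest and 3 longest spacings and those nearest each limit of the rule. The alternatives tried are IDR of at most 0.0001, other promoter limits, transcript starts and each replicate left out among others.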

Additional observations from a re-analysis of the deposited data

How the results depend on the processing

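Of 66 alternative values over 6 results and 11 alternatives, 45 stayed near the main value, 20 moved and 1 reversed. For the ratios of signal and of density, staying meant within the spread of the replicates. For the number of regions it meant within 1.5 times the main count. For the shares it meant within the Wilson interval of the main share, which covers counting error and not the spread of the replicates. At an IDR of at most 0.0001 the ratio of median signal reversed to 0.908, the number of regions was 57, the two-strand share of promoter regions 40.7%, the share of stretches with a summit 2.02% and the ratio of densities 6.38. With a promoter from 500 bp upstream to 100 bp downstream the share was 27.5%, the signal ratio 1.10 and the density ratio 6.05. With 2000 bp upstream the share was 35.4% and the density ratio 3.18. Transcript starts gave a signal ratio of 1.20. Without starts within 500 bp behind a same-strand gene, an alternative added after seeing the data like the density ratio itself, the share was 35.3%. Where the cause of these shifts is not fewer peaks or other limits by construction, the cause was not tested.

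With one replicate left out, and the other's own list in place of the list over both, the number of regions ranged from 168 to 207, the share from 33.9% to 35.2%, the signal ratio from 1.09 to 1.11, the share of stretches with a summit from 5.87% to 7.28% and the density ratio from 4.77 to 5.05. The share of summits between the starts kept within 89.7% to 93.5% in the 11 alternatives. No paired analysis was possible because there is only 1 group. Depth is unknown, so the number of members limits the precision.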
